A study of Rattus norvegicus with 6 samples.

Results

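The Malat1-Neat1 locus lncRNAs were taken as the long noncoding RNAs (lncRNAs) lying wholly between positions 221000000 and 221400000 of rat chromosome 1 in the Rnor_6.0 assembly. Of the 18649 lncRNAs listed for every sample, 2275 were on this chromosome and 23 met the rule, and no other lncRNA ran across an edge of the window. The cells were INS-1, an insulin-secreting line derived from a rat insulinoma, so that all samples represent a single tumour-derived line. Con (3 samples) were INS-1 cells labelled as controls, whereas the treated cells (HG/PA, 3 samples) received 25 mM glucose and 0.5 mM palmitate for 24 h, an exposure used as a model of glucolipotoxicity. The study's methods give a medium for growing the cells and albumin as the carrier of palmitate, and do not state separately what the control cells received during the exposure. Total RNA was sequenced in strand-specific paired-end libraries, and the study describes the samples of a group as biological replicates. The question was whether the level of each lncRNA of the locus, and of the locus as a whole, differed between the treated and the control cells.

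Malat1 is an abundant lncRNA that is retained in the nucleus and concentrates in nuclear speckles, the bodies that store splicing factors. Neat1 is the lncRNA on which another nuclear body, the paraspeckle, is built, and both genes lie close together in mammalian genomes. The tables pair no identifier with a gene name, and the RefSeq gene table of the later GRCr8 assembly does not use NONCODE identifiers, so that 0 of the 23 could be looked up there. The transcripts are named by their NONCODE identifiers, none is assigned to Malat1 or Neat1, and the name of the locus was not checked beyond its position. The tables hold lncRNAs only, so beta cell markers and markers of other cell types were not analysed here.

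Levels were given as FPKM, fragments divided by transcript length in kilobases and by the size of the library, which allows lncRNAs of different length to be compared. In every sample the FPKM values were multiples of the value of 1 fragment, with 100% of them within 0.1 of a whole fragment. These steps implied a depth of 13770879, 12491547 and 12529011 fragments for Con 1 to 3 and of 12656956, 13688835 and 13187359 for HG/PA 1 to 3. On the locus lay 155933, 133522 and 75227 of these for Con 1 to 3, and for HG/PA 1 to 3 the numbers were 113508, 73525 and 131375. Con 3 and HG/PA 2 were thus low for the locus, although neither was the shallowest library, and in both the deficit lay in 1 transcript, NONRATT003468.2. The main results that rest on these samples are given with and without them, an alternative chosen after seeing the data.

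Within the window the members ranged from 242 to 3290 nt in length, with a median of 500 against 663 over all listed lncRNAs. In 17 of them the span on the chromosome exceeded the transcript length, as for spliced transcripts, and in 6 it equalled the length. Some members overlapped, so that the 23 lncRNAs formed 19 separate stretches. The tables give no strand, and how fragments were divided between overlapping members was not tested. Mean FPKM over the 6 samples ran from 0.061 to 2912, with a median of 2.55 against 1.45 for all listed lncRNAs. Of the 31 lncRNAs in the tables with a mean FPKM of at least 100, 4 were in this window. At the other end, 18 members had a mean FPKM under 15 and never more than 101 fragments in a sample, and 6 of those were under 1 FPKM. The plot of levels along the region shows that the 5 abundant transcripts lay between 153 and 204 kb from the start of the first member.

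**Figure D1:**
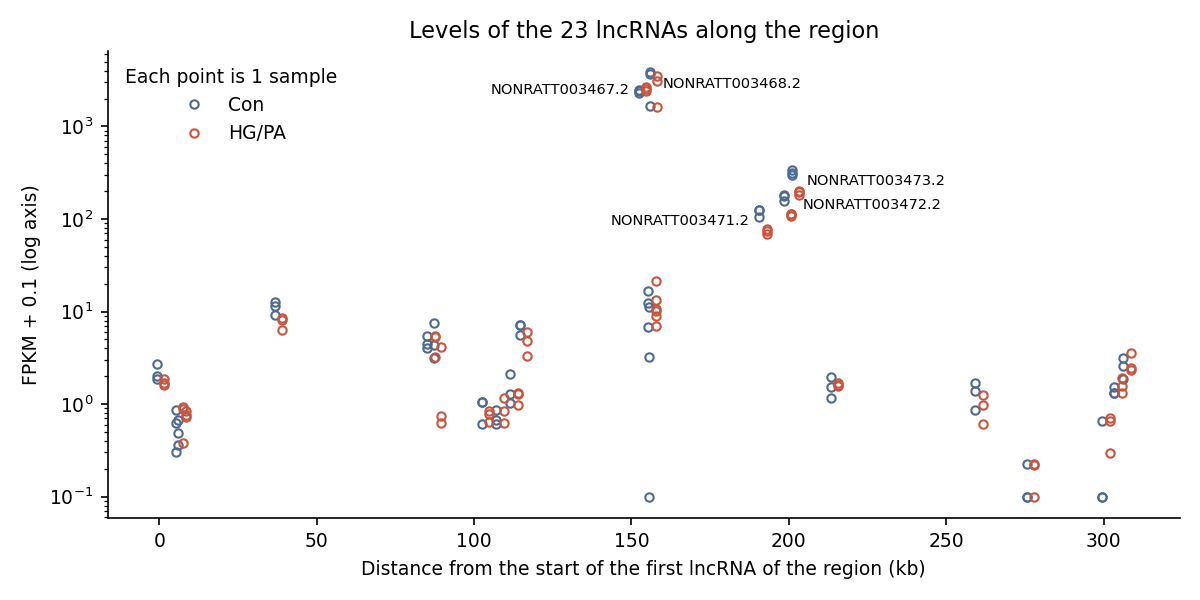
FPKM of the 23 lncRNAs (vertical log axis, 0.1 added) against the distance of each from the start of the first one in kb; each circle is 1 sample, Con in blue and HG/PA in red, shifted slightly sideways. The 5 named transcripts stand above all others, and for NONRATT003471.2, NONRATT003472.2 and NONRATT003473.2 the red circles lie below the blue ones.

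In HG/PA-treated INS-1 cells, 3 neighbouring unspliced lncRNAs of the locus were downregulated, each to between 0.606 and 0.653 of its Con level. In limma, a linear model fitted to log2(FPKM + 0.1) of all lncRNAs, these were the members with an adjusted p under 0.05 at any fold, and 1.72% of all 17558 tested lncRNAs were called lower by that rule. The rule without a fold requirement was chosen after seeing the data. Whether the 3 are separate transcripts was not tested, so their calls may not be independent of each other. The 2 most abundant transcripts, NONRATT003468.2 and NONRATT003467.2, did not pass the test. With a fold change of at least 2 required, limma called 0 of the 23 members at an adjusted p under 0.05, against 1.49% of all tested lncRNAs, and 1 member at an unadjusted p under 0.05, against 6.49%; limma-voom on the recovered fragments likewise called 0 and 1. Log2 fold changes of single lncRNAs are on this scale, which understates the change of low transcripts.

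NONRATT003473.2 (chromosome 1, 221200983 to 221204272, 3290 nt) was the longest member and ranked 9 of all lncRNAs by mean FPKM. It measured 317, 299 and 337 FPKM in Con 1 to 3 and 198, 184 and 195 FPKM in HG/PA 1 to 3. Every HG/PA sample was below every Con sample, and the spread within a group was small beside the gap. The means were 317 ± 19.0 and 192 ± 7.49 FPKM (SD, n = 3 each). Its log2 fold change was −0.72 (SE 0.06, 95% interval −0.86 to −0.59, limma adjusted p = 0.0044). In cells measured in bulk, a lower level per cell and fewer cells with the transcript cannot be told apart.

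NONRATT003472.2 (221199790 to 221200570, 781 nt) ended 412 bases before the start of NONRATT003473.2. It measured 178, 156 and 180.0 FPKM in Con 1 to 3 and 113, 108 and 114 FPKM in HG/PA 1 to 3. Again all 3 treated samples were below all 3 control samples, and the treated samples were nearly equal. The log2 fold change was −0.61 (SE 0.07, 95% interval −0.77 to −0.45, limma adjusted p = 0.0097).

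NONRATT003471.2 (221191924 to 221192632, 709 nt) ended 7157 bases before the start of NONRATT003472.2. It measured 104, 124 and 124 FPKM in Con 1 to 3 and 78.1, 68.5 and 75.0 FPKM in HG/PA 1 to 3. Here Con 1 was the lowest control sample and still exceeded the highest treated one. The log2 fold change was −0.67 (SE 0.09, 95% interval −0.88 to −0.46, limma adjusted p = 0.017).

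By the same rule, without a fold requirement, among the 27 lncRNAs outside the window with a mean FPKM of at least 100, 7 were called lower and 3 higher. The call depended on the model of the variance, on the number of samples and on whether a replicate block was used. With that block, limma called NONRATT003473.2, but not NONRATT003472.2 (limma adjusted p = 0.059) or NONRATT003471.2 (limma adjusted p = 0.10). Without the trend of variance on level, limma called 0 of the 3, and over all alternatives their adjusted p ranged from 0.0029 to 0.11 for NONRATT003473.2, from 0.0066 to 0.16 for NONRATT003472.2 and from 0.012 to 0.19 for NONRATT003471.2. NONRATT003473.2 was called with any 1 sample left out. NONRATT003472.2 was lost without Con 1 or HG/PA 2, and NONRATT003471.2 without any 1 sample other than Con 1. Without both Con 3 and HG/PA 2, limma called 1 of 16603 lncRNAs and none of these, with log2 fold changes of −0.65, −0.55 and −0.57 for NONRATT003473.2, NONRATT003472.2 and NONRATT003471.2.

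The median log2 fold change over all tested lncRNAs was −0.11, and it became 0.01 after median-of-ratios rescaling of the samples, which evens out shifts shared by most lncRNAs. Relative to that median the change was −0.61 for NONRATT003473.2, −0.50 for NONRATT003472.2 and −0.55 for NONRATT003471.2. The ratio of NONRATT003473.2 to NONRATT003467.2, which does not depend on the scaling of a library, was 0.127, 0.131 and 0.140 in Con 1 to 3 and 0.0821, 0.0687 and 0.0774 in HG/PA 1 to 3. On this measure too the groups did not overlap. Relative to NONRATT003468.2 they did overlap, the ratio being 0.0816, 0.0815 and 0.202 in Con 1 to 3 and 0.0637, 0.113 and 0.0554 in HG/PA 1 to 3, highest in the samples where NONRATT003468.2 was low. Among the 3 transcripts, FPKM of NONRATT003473.2 was 1.70 to 1.92 times that of NONRATT003472.2 and 2.41 to 3.03 times that of NONRATT003471.2 over the 6 samples. The FPKM of NONRATT003472.2 was 1.26 to 1.70 times that of NONRATT003471.2.

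**Figure D2:**
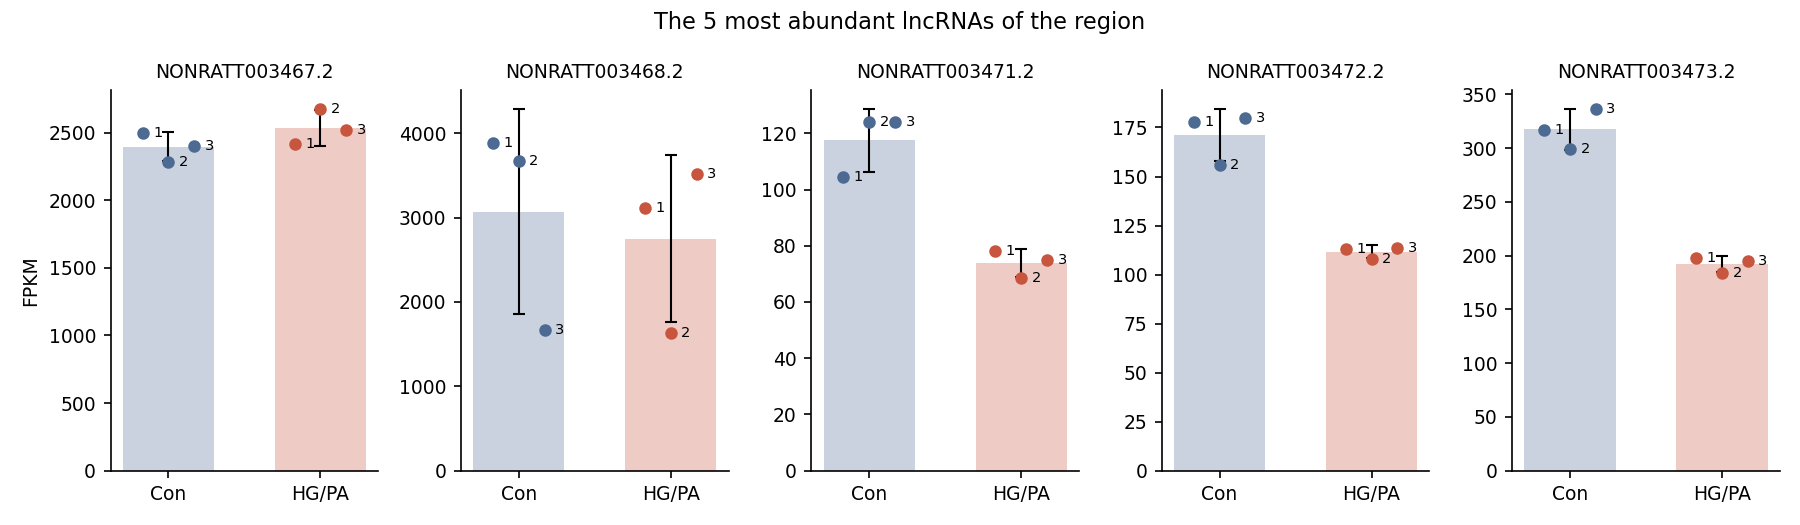
FPKM of the 5 most abundant transcripts in order of position; points are samples marked with their number, bars are group means and whiskers are 1 SD (n = 3). The groups are separate for NONRATT003471.2, NONRATT003472.2 and NONRATT003473.2, while NONRATT003468.2 is low in Con 3 and HG/PA 2.

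NONRATT003468.2 (221156368 to 221158798, 2431 nt, unspliced) held the most fragments of all lncRNAs in the tables and ranked 2 by mean FPKM. It measured 3882, 3667 and 1669 FPKM in Con 1 to 3 and 3111, 1628 and 3514 FPKM in HG/PA 1 to 3. One sample of each group was low, so that the groups overlapped, while the other HG/PA samples were below the other Con samples. The log2 fold change was −0.14 (SE 0.40, 95% interval −1.10 to 0.82, limma adjusted p = 0.90), and −0.19 without Con 3 and HG/PA 2. It was −0.53 without Con 3 alone, 0.20 without HG/PA 2 alone and −0.60 in limma-voom. As a fold, the interval with all samples ran from 0.467 to 1.77 times the Con level. The transcript had between 50822 and 129964 fragments per sample, so that counting error was far smaller than the spread between replicates. Its pooled within-group SD of 0.640 on the log2 scale ranked 4 of the 31 lncRNAs with a mean FPKM of at least 100, whose median was 0.109.

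NONRATT003467.2 (221153903 to 221154144, 242 nt, unspliced) was the shortest member and ranked 3 by mean FPKM. It lay 2223 bases before NONRATT003468.2. It measured 2500, 2285 and 2403 FPKM in Con 1 to 3 and 2415, 2677 and 2517 FPKM in HG/PA 1 to 3. The groups overlapped, and neither Con 3 nor HG/PA 2 was low, HG/PA 2 being the highest of all. Its log2 fold change was 0.08 (SE 0.05, 95% interval −0.03 to 0.20, limma adjusted p = 0.45), or 0.20 relative to the median of all lncRNAs. In order of level, NONRATT003468.2 and NONRATT003467.2 overlapped across the samples, NONRATT003468.2 being 0.608 to 1.60 times as high. Below them came NONRATT003473.2, NONRATT003472.2 and NONRATT003471.2, in this order in each of the 6 samples.

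Inside the span of NONRATT003468.2 lay a pair of spliced transcripts, whose strand is not given in the tables. NONRATT003469.2 (221156842 to 221157323) measured 12.2, 6.75 and 16.5 FPKM in Con 1 to 3 and 8.96, 21.4 and 9.92 FPKM in HG/PA 1 to 3. NONRATT003470.2 (221156842 to 221157577) measured 0, 3.17 and 11.0 FPKM in Con 1 to 3 and 6.92, 13.2 and 10.5 FPKM in HG/PA 1 to 3. Both were highest of their group in Con 3 and in HG/PA 2, the samples in which NONRATT003468.2 was lowest, but on at most 101 fragments against at least 50822 for NONRATT003468.2. The part of the overlap in the low values of NONRATT003468.2 was not tested. Neither passed the test, with log2 fold changes of 0.16 (SE 0.43, limma adjusted p = 0.89) for NONRATT003469.2 and 2.70 (SE 1.59, limma adjusted p = 0.45) for NONRATT003470.2. The latter value includes the 0 in Con 1 (3 fragments were worth 0.615 to 0.678 FPKM, depending on the sample), and it was 3.81 with a pseudocount of 0.01 and 1.56 with a pseudocount of 1. It was 0.72 without Con 1 and 4.12 without Con 3. Without both Con 3 and HG/PA 2, the log2 fold change was 0.05 for NONRATT003469.2 and 3.92 for NONRATT003470.2. For NONRATT003469.2 it turned negative without Con 2 (−0.19) or HG/PA 2 (−0.23) and was 0.44 without Con 3.

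The lncRNAs outside the window with the pattern most like NONRATT003468.2 were sought by Pearson's r of log2(FPKM + 0.1) over the 6 samples, among 11071 lncRNAs with a mean FPKM of at least 1. The closest were NONRATT011264.2 (r 0.989), NONRATT023770.2 (r 0.988) and NONRATT016788.2 (r 0.984), on chromosomes 16, 5 and 2. NONRATT011264.2 measured 2.22, 2.14 and 1.22 FPKM in Con 1 to 3 and 1.81, 1.12 and 1.88 FPKM in HG/PA 1 to 3. NONRATT023770.2 measured 1.36, 1.34 and 0.693 FPKM in Con 1 to 3 and 1.05, 0.731 and 1.21 FPKM in HG/PA 1 to 3. NONRATT016788.2 measured 32.0, 32.1 and 0.562 FPKM in Con 1 to 3 and 30.6, 0.343 and 31.7 FPKM in HG/PA 1 to 3. All are low in Con 3 and HG/PA 2, which the search itself selected for, and with 6 samples from the same libraries these values are a description only.

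Among the less abundant members, NONRATT003461.2 (221037994 to 221038878) measured 11.3, 12.6 and 9.03 FPKM in Con 1 to 3 and 6.24, 8.46 and 7.98 FPKM in HG/PA 1 to 3. The groups did not overlap, on 30 to 60 fragments a sample, but the log2 fold change of −0.53 did not pass the adjustment (SE 0.18, limma adjusted p = 0.19). NONRATT003464.2 (221088316 to 221089493) measured 3.05, 7.42 and 4.23 FPKM in Con 1 to 3 and 0.523, 0.645 and 4.02 FPKM in HG/PA 1 to 3. HG/PA 3 was within the range of the controls, and the other treated samples held 3 and 4 fragments. Its log2 fold change was −1.91 (SE 0.75, limma adjusted p = 0.25). In limma it was the only member past a fold change of 2 with an unadjusted p under 0.05. The study set a fold change of 2 and a p of 0.05 with edgeR, a different test, and its own calls were not reproduced here. The limma call of NONRATT003464.2 was lost after rescaling, without the variance trend, and with any 1 sample other than HG/PA 3 left out. Its log2 fold changes in these settings ran from −2.20 to −1.42. NONRATT003463.2 (221086032 to 221087639) measured 5.39, 4.34 and 3.95 FPKM in Con 1 to 3 and 5.30, 3.09 and 5.20 FPKM in HG/PA 1 to 3. Its groups overlapped throughout, with a log2 fold change of −0.04 (SE 0.25, limma adjusted p = 0.97). The sign of that value depended on the samples, from −0.17 without HG/PA 1 to 0.21 without HG/PA 2.

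All 23 members passed the filter of at least 0.1 FPKM in 3 samples. At an unadjusted limma p under 0.05 and any fold, 5 members were lower and 0 higher, against 11.8% lower and 5.55% higher over all tested lncRNAs. The median log2 fold change of the 23 members was −0.04, beside −0.11 over all tested lncRNAs, with 11 members above 0 and 12 below. The Con and HG/PA samples did not overlap for 5 members, 4 lower and 1 higher in HG/PA, a share near the 23.6% of all tested lncRNAs. The member that was higher, NONRATT003459.2, had 3 to 8 fragments a sample and did not pass the test (log2 fold change 0.65, limma adjusted p = 0.40). It was named after its values were seen. The plot of fold changes shows narrow intervals for the abundant members other than NONRATT003468.2 and wide ones for most of the rest.

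**Figure D3:**
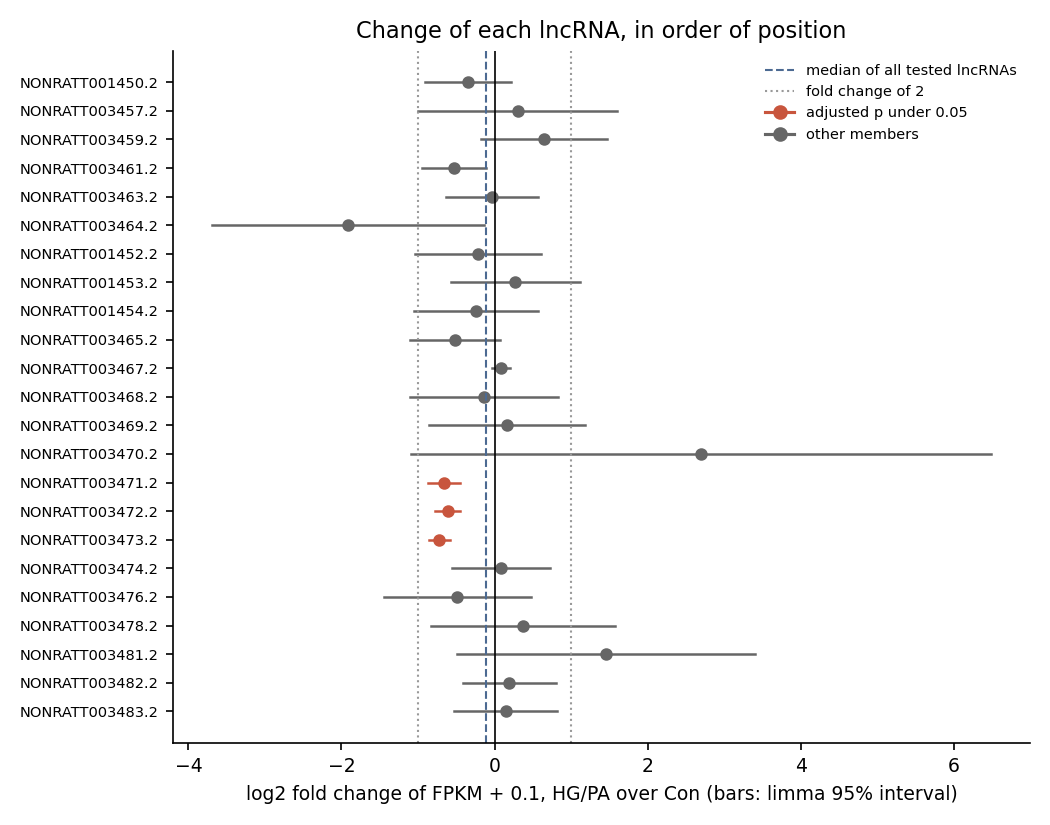
log2 fold change of each of the 23 lncRNAs in order of position (HG/PA over Con, on FPKM + 0.1) with its limma 95% interval; red marks an adjusted p under 0.05, the dashed line is the median of all tested lncRNAs and the dotted lines a fold change of 2. The 3 red points lie between −0.72 and −0.61, inside the dotted lines, and all other intervals are shown in grey.

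For the locus as a whole, fragments were scaled to 1000000 mapped fragments of the sample (FPM) and summed over the 23 members. The sum was 11323, 10689 and 6004 FPM in Con 1 to 3 and 8968, 5371 and 9962 FPM in HG/PA 1 to 3. The groups overlapped, each with 1 low sample, and the difference was smaller than the SD within either group. The means were 9339 ± 2905 and 8100.5 ± 2415 FPM (SD, n = 3 each), a log2 ratio of −0.21, and the ratio was −0.22 without Con 3 and HG/PA 2. With 1 sample left out it was 0.02 without HG/PA 2, −0.04 without Con 1, −0.10 without Con 2, −0.44 without Con 3 and −0.38 without HG/PA 3. It was −0.08 after median-of-ratios rescaling and −0.10 as a sum of FPKM. As a share of the fragments of all lncRNAs, the locus made up 11.7%, 11.1% and 6.46% in Con 1 to 3 and 10.1%, 6.13% and 10.8% in HG/PA 1 to 3, with the same samples low. The difference of the means, HG/PA minus Con, was −0.764 percentage points, and −0.981 without Con 3 and HG/PA 2. It turned positive without Con 1 (0.21) or HG/PA 2 (0.67), and stayed negative with any other 1 sample left out, down to −2.415 without Con 3. As a share of summed FPKM it was −0.08.

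Without NONRATT003468.2, the remaining 22 members summed to 1886, 1775 and 1948 FPM in Con 1 to 3 and 1406, 1414 and 1420.1 in HG/PA 1 to 3. These sums did not overlap, and their log2 ratio was −0.40. Most of them came from the 3 downregulated transcripts, which together gave 1255, 1192 and 1336 FPM in Con 1 to 3 and 796, 738 and 783 in HG/PA 1 to 3. No test is given for these sums, which were formed from members already described. The sum over the whole locus thus followed NONRATT003468.2, whose level varied between samples of the same group.

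**Figure D4:**
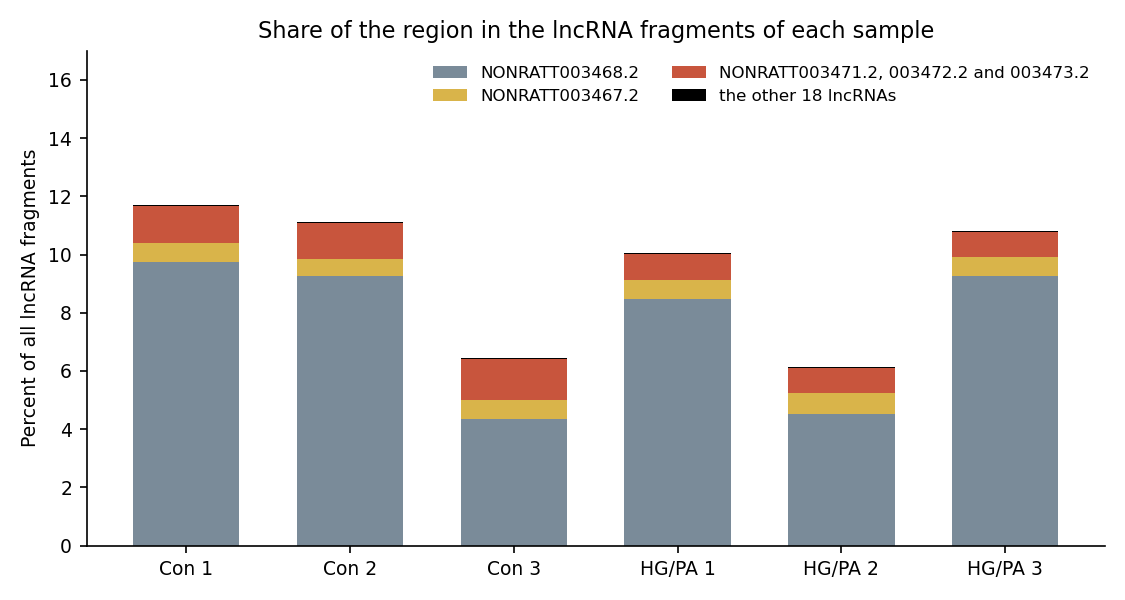
Percent of all lncRNA fragments of each sample that lay on the locus, stacked by transcript. The total is 6.46 in Con 3 and 6.13 in HG/PA 2 and between 10.1 and 11.7 in the other samples, and the part of NONRATT003471.2, NONRATT003472.2 and NONRATT003473.2 is smaller in each HG/PA sample than in each Con sample.

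The windows of the same length directly before and after the locus each listed 18 lncRNAs, of which 16 and 17 were tested. Their median mean FPKM was 1.45 and 1.62, against 2.55 in the locus, and their highest was 4.94 and 21.4. In Con they held 0.0242% and 0.0582% of all lncRNA fragments, against 9.76% for the locus. At an adjusted p under 0.05, limma called 0 in the window before and 1, higher in HG/PA, in the window after. Whether the locus differs from these windows in its response was not tested.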

How the data were processed

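Total RNA of 3 Con and 3 HG/PA samples was sequenced by the authors, who mapped filtered reads with HISAT2 to Rnor_6.0 and deposited FPKM values from StringTie for each lncRNA. Groups follow the sample labels. Members and comparison lists were chosen with earlier results of these data known, so no test over the list and no p for its sums is given. Fragments were recovered from the steps of FPKM × length. limma 3.58.1 (R 4.3.3, moderated variance with a trend, two-sided) was fitted to log2(FPKM + 0.1) of the 17558 lncRNAs with at least 0.1 FPKM in 3 samples. Benjamini-Hochberg adjustment was over all of these lncRNAs. With 3 samples against 3, an exact permutation test cannot give a p under 0.1. Named members were the 8 with most fragments, those past a fold change of 2 with unadjusted p under 0.05, and those with the largest rise and fall. Alternatives were other pseudocounts, filters and scalings, no trend, a replicate block, limma-voom and leaving out samples. Summaries used Python 3.11.15 with pandas 2.3.3 and scipy 1.17.1.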

Additional observations from a re-analysis of the deposited data

How the results depend on the processing

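The downregulation of NONRATT003471.2, NONRATT003472.2 and NONRATT003473.2 kept its direction under all 15 alternatives. Members called at an adjusted p under 0.05 numbered 3 with all samples, 0 without a variance trend, 0 without Con 3 and HG/PA 2 (fewer samples), and 1 to 2 with 1 sample left out. Members past a fold change of 2 at an unadjusted p under 0.05 numbered 1 with all samples, 0 after median-of-ratios rescaling, 0 without a trend, 0 without Con 3 and HG/PA 2, and 0 to 1 with 1 sample left out, not always the same member. With 1 sample left out, the summed locus log2 ratio ran from −0.44 to 0.019 and the difference in the share of lncRNA fragments from −2.42 to 0.67 percentage points. Under the same alternative the log2 fold change ran from −0.53 to 0.20 for NONRATT003468.2, from −0.17 to 0.21 for NONRATT003463.2 and from −0.23 to 0.44 for NONRATT003469.2; that of NONRATT003463.2 was also 0.090 after rescaling and 0.12 without Con 3 and HG/PA 2. With limma-voom, NONRATT003468.2 was at −0.60. The causes were not tested. The labels do not say whether equal replicate numbers mark paired samples. The r of same-numbered deviations from the group means was −0.03 to −0.01, which cannot settle that point of the design. With a replicate block limma called 1 member at an adjusted p under 0.05, NONRATT003473.2, and 16 of all lncRNAs. The summed log2 ratio was then −0.20. Depth limits the members with few fragments, and replicates of a group differed by more than counting error.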
